A study of Mus musculus with 56 samples.

Results

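The 37 genes of mouse mitochondrial DNA were followed across the libraries of a muscle study. They were taken as every row of the count table whose mouse symbol starts with mt-, and they make 37 of the 57010 genes in the table. They comprise 13 mRNAs, 2 rRNAs and 22 tRNAs. The samples were gastrocnemius muscles of 28 mice aged 20 to 22 weeks. All mice carried a GFP-tagged copy of L10A, a protein of the cytosolic ribosome, switched on by Cre, and the Mlc1f promoter, which is active in skeletal muscle fibres, drove the Cre. HuR is an RNA-binding protein made from Elavl1. In mice labelled HuR knockouts Elavl1 was floxed as well, and in mice labelled controls it was not. Each of the 4 groups of sex and genotype held 7 mice, and each mouse gave a total library, from whole muscle homogenate, and a ribosomal library, from RNA that came down with the tagged ribosomes. The mouse numbers in the descriptions differ: 1 passage counts 7 males and 7 females, another counts 14 of each sex, and the sample titles name 28 mice, which is the number used here. In the text below, "ribosomal libraries" means the tagged-ribosome preparation, whereas mitochondrial rRNA is named as mt-rRNA.

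Mitochondrial DNA is read from both strands into long precursors that span most of the circle. tRNAs lie between most mRNAs and rRNAs, and cutting at the tRNAs releases the separate transcripts. The mRNAs encode core subunits of respiratory complexes I, III and IV and of the ATP synthase, and all other subunits come from nuclear genes. The mt-rRNAs and tRNAs serve a separate ribosome inside mitochondria, which lacks L10A. Skeletal muscle fibres are rich in mitochondria, so the transcripts are abundant in whole muscle RNA.

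The 13 mRNAs differed in whether they could be counted at all. Counts over the 56 libraries came to 1027836 for mt-Nd1, 766520 for mt-Nd2, 757180 for mt-Nd4, 376837 for mt-Nd5 and 3707 for mt-Nd6, all subunits of complex I. They came to 918146 for mt-Cytb of complex III and 298043 for mt-Co1, the catalytic subunit of complex IV. The other complex I subunits had 661 counts (mt-Nd3) and 3 counts (mt-Nd4l). The complex IV subunits mt-Co2 and mt-Co3 had 8 and 5 counts, and the ATP synthase subunits mt-Atp6 and mt-Atp8 had 16 and 1. Of the 13, 5 stayed under 100 counts and passed the filter on low counts in no fit.

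Sequence shared with nuclear copies marked most of the poorly counted mRNAs. Fragments of mitochondrial DNA have been copied into nuclear chromosomes, where they are annotated as pseudogenes, and reads of 50 bases that fit both places cannot be assigned to 1 of them. Every stretch of 50 bases of each mt- transcript was looked up in 141730 other annotated transcripts (GENCODE M21, a GRCm38 annotation, whereas the deposited counts rest on GRCm39). All 50-base stretches of mt-Co2 were found elsewhere, as were 99.86% of those of mt-Co3, 99.53% of mt-Atp6, 98.79% of mt-Nd4l and 97.99% of mt-Nd3. The pseudogenes that shared most with them were Gm28661 for mt-Co2, Gm28437 for mt-Co3 and Gm10925 for mt-Atp6. No stretch of mt-Cytb, mt-Nd1, mt-Nd6 or mt-Rnr1 was shared, nor any of the 22 tRNAs. mt-Nd4 shared 62.23% of its stretches with Gm28439 but 0% within its last 300 bases. A pair of transcripts fell outside this pattern. mt-Co1 shared 51.14% overall and 100% of its last 300 bases but was well counted. mt-Atp8 shared 0% and had 1 count, and its reading frame overlaps that of mt-Atp6. The summary lines of the count table hold 14.0 to 23.8% of reads per library as not uniquely aligned and 0.417 to 0.653% as ambiguous between genes. These lines do not name the genes concerned. The authors' counting options for such reads are not given in the sources used here. The last 90 bases of 7 mRNAs are shown because a 3′ end protocol reads near these ends. Capitals mark bases inside a 50-base stretch that another annotated transcript also holds.
mt-Co2: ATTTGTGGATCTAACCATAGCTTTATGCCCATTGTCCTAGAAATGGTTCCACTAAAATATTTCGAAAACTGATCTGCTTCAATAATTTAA
mt-Co3: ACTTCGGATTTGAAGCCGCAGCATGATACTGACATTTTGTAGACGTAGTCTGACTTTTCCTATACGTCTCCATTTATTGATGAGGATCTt
mt-Atp6: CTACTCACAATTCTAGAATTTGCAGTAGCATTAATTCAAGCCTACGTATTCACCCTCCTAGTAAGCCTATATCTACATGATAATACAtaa
mt-Atp8: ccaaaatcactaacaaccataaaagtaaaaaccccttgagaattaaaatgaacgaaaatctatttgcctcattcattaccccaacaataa
mt-Co1: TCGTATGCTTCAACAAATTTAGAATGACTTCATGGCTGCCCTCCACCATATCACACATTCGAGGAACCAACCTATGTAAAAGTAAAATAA
mt-Nd4: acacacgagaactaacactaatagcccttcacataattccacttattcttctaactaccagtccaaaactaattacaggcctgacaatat
mt-Cytb: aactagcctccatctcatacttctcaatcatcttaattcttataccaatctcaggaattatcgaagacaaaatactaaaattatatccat

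**Figure D1:**
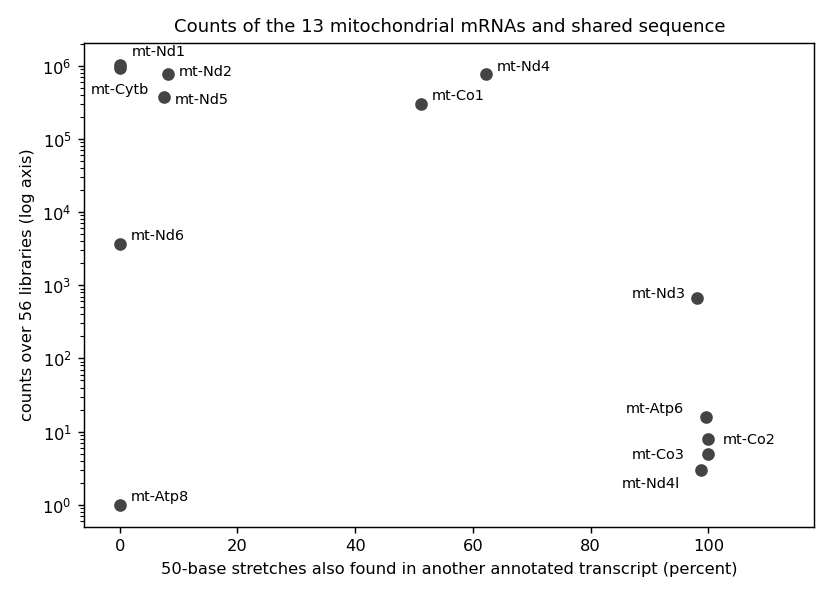
Each point is 1 of the 13 mitochondrial mRNAs. The x axis gives the percent of its 50-base stretches also present in another annotated transcript and the y axis, on a log scale, its counts summed over 56 libraries. mt-Co2, mt-Co3, mt-Atp6 and mt-Nd4l lie at the right with 16 counts or fewer, and mt-Atp8 lies at the left with 1 count.

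Reads were also counted at 15 of the 22 tRNAs, 165602 in all, of which mt-Tp gave 48722 and mt-Tm 37981. The other 7 tRNAs had a count of 0 in all 56 libraries (mt-Tn, mt-Ty, mt-Ts1, mt-Td, mt-Tk, mt-Tg and mt-Th). The mt-rRNAs gave 964512 counts (mt-Rnr1) and 2427200 counts (mt-Rnr2). A mature tRNA is little longer than a read, and a read at a tRNA can also come from an uncut precursor, which these counts do not separate. The strand setting of the counting is not given, so reads of light-strand genes such as mt-Nd6, mt-Tp and mt-Tq cannot be told apart from reads of the opposite strand. The 5 tRNAs that passed the filter in ribosomal libraries are shown with the anticodon in capitals, written as DNA.
mt-Tv: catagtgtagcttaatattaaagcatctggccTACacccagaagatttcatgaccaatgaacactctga
mt-Tl1: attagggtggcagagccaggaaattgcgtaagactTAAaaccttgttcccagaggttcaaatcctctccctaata
mt-Tq: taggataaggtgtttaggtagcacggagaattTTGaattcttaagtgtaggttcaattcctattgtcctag
mt-Tm: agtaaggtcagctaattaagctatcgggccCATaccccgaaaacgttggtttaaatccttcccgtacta
mt-Tp: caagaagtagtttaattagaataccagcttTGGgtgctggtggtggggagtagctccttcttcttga
They carry valine, leucine, glutamine, methionine and proline in this order.

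Ribosomal libraries held 160313 to 3579221 counts and total libraries 2427655 to 5848058. Muscle fibre markers were all detected, 13 of 13 in both RNA types. Elavl1 did not mark the labels: its medians ranged from 59.4 to 104 CPM (counts scaled to a common library size) in ribosomal and 82.9 to 90.2 CPM in total groups, and its adjusted p was 0.206 to 0.969 over the 4 knockout comparisons (edgeR quasi-likelihood test). A 3′ read may lie outside the floxed part of Elavl1, so this checks nothing. The groups are called labelled knockouts for that reason. The ribosomal libraries of male knockout 2 (160313 counts) and male control 20 (704646 counts) stood apart from their groups in mitochondrial share, and results that rest on them are given with and without them. With bulk tissue, fewer cells of a type and less RNA per cell cannot be told apart.

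Mitochondrial transcripts made up a small part of the ribosomal libraries and a larger part of the total libraries. In female controls the 37 genes together came to 0.320, 0.580 and 1.32% (lowest, median and highest) of the counts of nuclear genes in ribosomal libraries. In female labelled knockouts they came to 1.54, 2.22 and 5.0%, so every labelled knockout lay above every control. In male controls the values were 0.334, 0.494 and 1.53%, and in male labelled knockouts 0.300, 0.333 and 3.10%, and these groups overlapped. In total libraries the lowest, median and highest values were 6.85, 7.15 and 7.92% in female controls and 5.54, 8.61 and 10.9% in female labelled knockouts, which spread to both sides of the controls. In males they were 6.23, 6.88 and 7.05% in controls and 5.82, 8.72 and 10.8% in labelled knockouts, of which male knockout 2 alone lay below the controls' highest value. The share was lower in the ribosomal than in the total library in 28 of 28 mice.

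**Figure D2:**
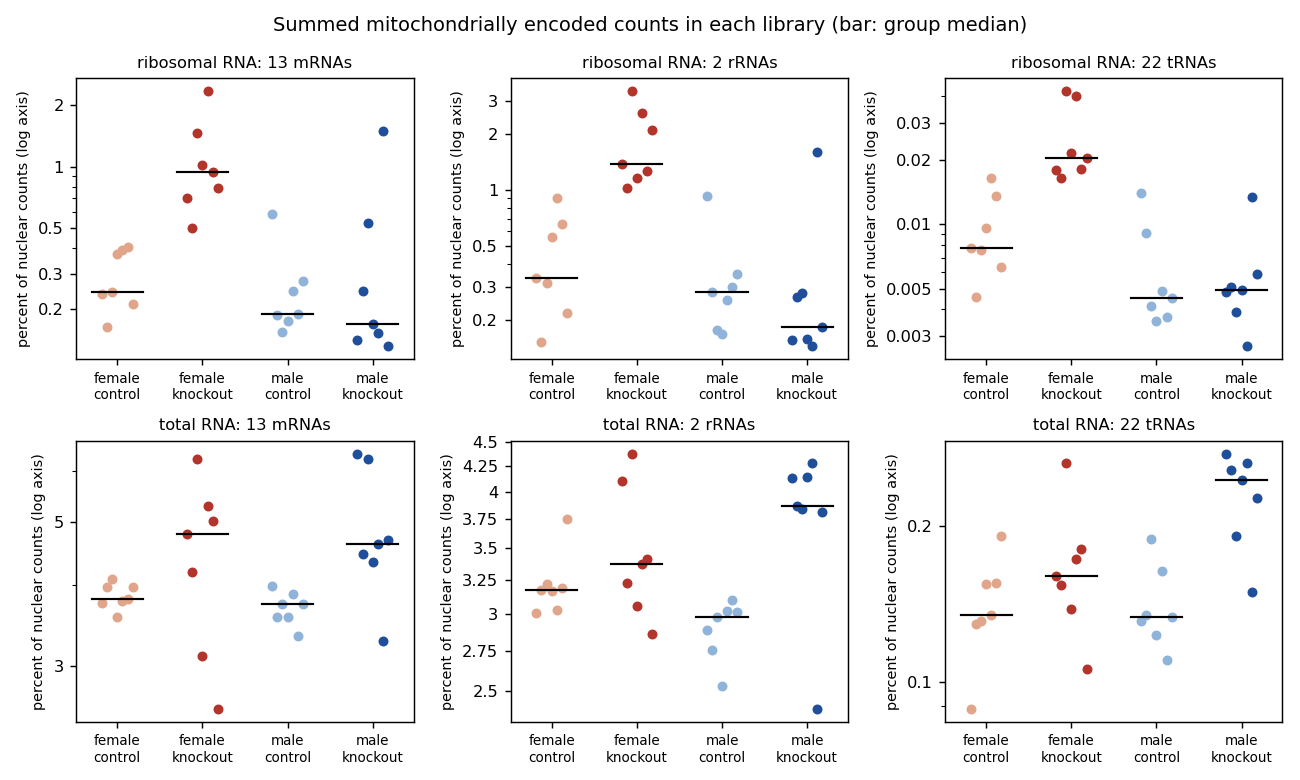
Summed counts of the mitochondrial mRNAs, mt-rRNAs and tRNAs in percent of nuclear gene counts (log axes), with 1 point per library, 7 per group, and a bar at the group median. In ribosomal RNA every female labelled knockout lies above every female control for mRNAs and mt-rRNAs, the tRNA sums of these groups overlap, and the 1 high male labelled knockout in ribosomal RNA is male knockout 2.

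In ribosomal RNA of females, mitochondrial mRNAs, mt-rRNAs and tRNAs were higher in labelled knockouts. The filter on low counts asks for 6.156 CPM in at least 7 of the 28 ribosomal libraries, whatever their group. mt-Rnr1, mt-Rnr2, mt-Nd1, mt-Nd2, mt-Nd4, mt-Nd5, mt-Co1, mt-Cytb, mt-Tm and mt-Tp reached that level in 6 or 7 libraries of each ribosomal group, and these 10 rose by 1.505 to 2.50 on the log2 scale, where the median over all genes tested was -0.02. mt-Tl1 and mt-Tq passed the filter only through the female labelled knockouts, so a difference was built into their passing, and mt-Tv and mt-Nd6 reached the level in exactly 7 of the other 21 libraries. These 4 were called higher as well. Calls rest on edgeR's quasi-likelihood test over all 9098 genes, with a Benjamini-Hochberg adjusted p under 0.05, and 16.8% of all genes were called here, 8.44% higher and 8.41% lower. The 14 members that passed comprise 7 mRNAs, both mt-rRNAs and 5 tRNAs. They are transcripts of 1 genome and are not independent of each other. The other 23 members had too few counts in these libraries and give no count here.

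Among the complex I subunits, mt-Nd5 had the largest difference. Its lowest, median and highest levels were 45.7, 77.8 and 206 CPM in female controls and 186, 486 and 1139 CPM in female labelled knockouts (log2 difference 2.50, SE 0.51, adjusted p 0.000837, edgeR). Above every control lay 6 of 7 labelled knockouts, and the exception was female knockout 10. mt-Nd1 ran from 366 to 2056 CPM in controls (median 642) and from 1429 to 6506 CPM in labelled knockouts (median 3612), a log2 difference of 1.96 with 5 of 7 above every control. mt-Nd2 rose by 1.89, from a median of 439.8 to 1943 CPM, and mt-Nd4 by 1.99, from 736 to 3553 CPM, each with 6 of 7 labelled knockouts above every control. The light-strand gene mt-Nd6 was sparse, with 1.06, 3.47 and 18.4 CPM in controls and 1.68, 20.0 and 27.5 CPM in labelled knockouts, and its log2 difference of 2.02 had an adjusted p of 0.0156 (edgeR). In mt-Nd6, 4 of 7 labelled knockouts were above every control. DESeq2 called 12 of the 14 members and did not call mt-Nd6 (adjusted p 0.0713) or mt-Tp (adjusted p 0.127), and without female control 15 edgeR did not call mt-Nd6 (adjusted p 0.0581).

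The genes of complexes III and IV moved by a like amount. mt-Cytb, which encodes cytochrome b, stood at 224, 370.0 and 822 CPM in female controls and at 794, 2046 and 3941 CPM in female labelled knockouts (log2 difference 2.10, SE 0.51, adjusted p 0.00423, edgeR). The lowest labelled knockout, female knockout 10, lay below the highest control, female control 19, and the other 6 lay above all controls. mt-Co1 stood at 41.5, 69.3 and 178 CPM in controls and 139, 318 and 741 CPM in labelled knockouts, a log2 difference of 2.05 with 6 of 7 above every control. No mitochondrial gene of the ATP synthase passed the filter on low counts.

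Both mt-rRNAs rose. mt-Rnr2, the large-subunit rRNA, had 883, 2255 and 9020.3 CPM in female controls and 7599.8, 11839 and 32926 CPM in female labelled knockouts, a log2 difference of 2.02. mt-Rnr1, the small-subunit rRNA, had 337, 842 and 3202 CPM in controls and 2593, 4584 and 11650.3 CPM in labelled knockouts, a log2 difference of 2.09. For each of them 6 of 7 labelled knockouts were above every control. The summed mt-rRNA counts per mt-mRNA count had a median of 1.4 in female controls and 1.96 in female labelled knockouts, with ranges of 0.925 to 2.32 and 1.11 to 2.70 that overlapped.

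Of the tRNAs, mt-Tm stood at 11.4, 30.1 and 68.6 CPM in female controls and 64.6, 89.3 and 255 CPM in female labelled knockouts (log2 difference 1.96, SE 0.38, adjusted p 0.000436, edgeR). mt-Tv, whose gene lies between those of the mt-rRNAs, rose by 1.98, from a median of 4.62 to 16.5 CPM. For both, 6 of 7 labelled knockouts were above every control. mt-Tl1 rose by 2.24, mt-Tq by 1.83 and mt-Tp by 1.505, and their groups overlapped more, with 4, 1 and 2 of 7 labelled knockouts above every control. No member had all 7 labelled knockouts above all 7 controls in normalized level, where 1.1% of all genes did.

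The same female ribosomal libraries also differed in depth and in other transcripts. Depth ran from 422756 to 3058801 counts in female controls and from 491405 to 1207021 in female labelled knockouts. The share of reads outside genes ran from 5.0 to 9.999% and from 6.53 to 12.5%. Across the 28 ribosomal libraries the log2 mt-mRNA share went with depth at Pearson r = -0.820, taken over deviations from the group means, where both measures come from the same library. The shallowest female controls, 19 and 18 (422756 and 575174 counts), had summed mt-mRNA at 0.406 and 0.392% of nuclear counts. The female labelled knockout with the lowest share, knockout 10, was also the deepest of its group, at 1207021 counts and 0.499%. Without the 7 shallowest ribosomal libraries (704646 counts or fewer), the 10 members that reach the filter's level in 6 or 7 libraries of each group were called in females too, from 1.74 (mt-Tp) to 2.78 (mt-Rnr1). In that fit every remaining female control (1516216 counts or more) was deeper than every remaining female labelled knockout (1207021 counts or fewer). That fit therefore cannot separate depth from genotype. What part depth has in the difference was not tested.

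**Figure D3:**
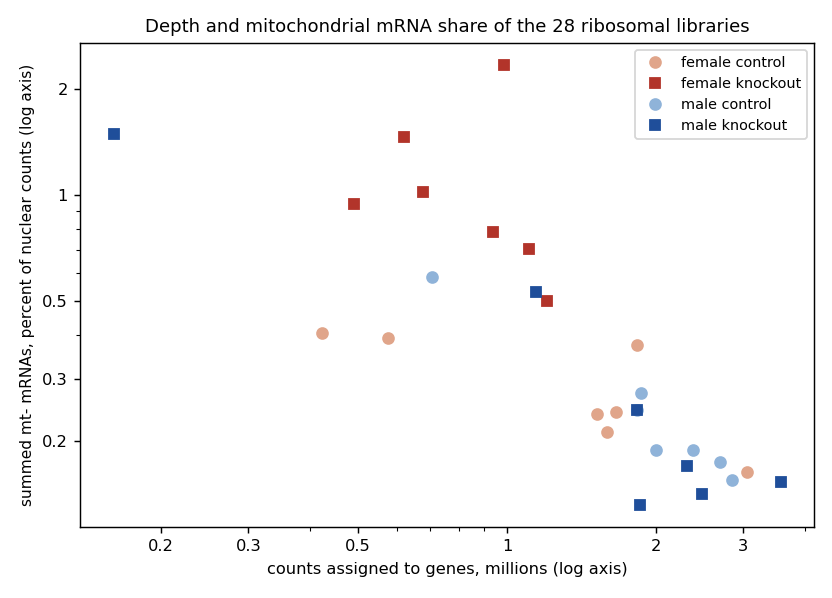
Counts assigned to genes (x) against summed mitochondrial mRNA in percent of nuclear gene counts (y) for the 28 ribosomal libraries, both on log axes. The shallowest female control, male control and male labelled knockout lie highest in their groups, and the female labelled knockouts lie between 0.499 and 2.35%.

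Markers of other material were higher in the same female labelled knockouts. Of 9 nuclear retained long non-coding RNAs, 5 were tested and 5 rose, and their sum ran from 187 to 795 CPM in female controls and from 676 to 5526 CPM in female labelled knockouts. The extracellular matrix and fibroblast markers rose in 11 of 12, with sums of 319 to 437 and 560.0 to 1624 CPM. Endothelial markers rose in 7 of 7 tested of 8, with sums of 67.4 to 133 and 91.4 to 370 CPM. Red blood cell markers rose in 5 of 5, with sums of 127 to 250 and 277 to 1079.7 CPM. In male ribosomal libraries the red blood cell sum ran from 150 to 245 CPM in controls and from 337 to 540 CPM in labelled knockouts, also without overlap. The sums of the nuclear RNA, matrix and endothelial lists overlapped between the male groups. In females the muscle fibre markers, which belong to the cells that carry the tag, rose in 5 of 13. Their sum ran from 57330 to 176485 CPM in female controls (median 82493) and from 104400 to 171172 CPM in female labelled knockouts (median 117998), with overlap. No marker of these 5 lists was at 0 in ribosomal libraries. Their part in the mitochondrial difference was not tested.

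In ribosomal RNA of males, 0 of 14 members were called, where 8.96% of all genes were (4.09% higher, 4.87% lower), and 1 of 14 had an unadjusted p under 0.05 (edgeR). DESeq2 and limma-voom also called 0. mt-Cytb had 224, 281 and 1355 CPM in male controls and 168, 234 and 2809 CPM in male labelled knockouts (log2 difference 0.50, SE 0.51, adjusted p 0.613, edgeR). Its highest values belonged to male control 20 and male knockout 2, and the groups overlapped. Without male knockout 2 the difference of mt-Cytb was -0.44 and that of mt-Rnr2 moved from 0.15 to -1.15, neither called. The only member with an unadjusted p under 0.05 was mt-Nd6, at 2.49, 5.20 and 27.3 CPM in controls and 0.499, 2.02 and 14.6 CPM in labelled knockouts (log2 difference -1.33, SE 0.56, adjusted p 0.136, edgeR). A fit with no filter on low counts called 3 members, mt-Nd1 (0.58), mt-Nd2 (0.56) and mt-Nd6 (-1.35).

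The remaining members in male ribosomal libraries spanned log2 differences from -0.55 (mt-Tp) to 0.64 (mt-Nd1), with adjusted p of 0.504 or more (edgeR). mt-Nd1 had medians of 482 CPM in controls and 396 CPM in labelled knockouts although its fitted difference was positive, and male knockout 2 reached 4749 CPM. mt-Nd2 had the same pattern, with medians of 378 and 248 CPM and a highest library of 3647 CPM. mt-Rnr1 had medians of 733 and 459.6 CPM, mt-Nd4 507 and 430.1, mt-Nd5 79.0 and 59.7, and mt-Co1 75.2 and 54.9, all with groups that overlapped. No member had every labelled knockout above every control, as 1.15% of all genes did.

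The difference between the sexes in the genotype effect on ribosomal RNA passed the test for 4 of 14 members, where 3.43% of all genes passed (1.54% higher, 1.89% lower). These were mt-Nd6 (3.35, SE 0.81, adjusted p 0.0185), mt-Tl1 (2.47), mt-Tm (2.45) and mt-Tv (2.08), by edgeR. Of these, mt-Tl1 passed the filter only through the female labelled knockouts, and mt-Nd6 and mt-Tv reached its level in exactly 7 libraries outside that group. The mt-rRNAs and the other mRNAs did not pass, with differences from 1.27 (mt-Nd2) to 2.14 (mt-Nd5 and mt-Rnr1). The count depended on a few libraries. It was 12 without male knockout 2, 12 of 14 without the 7 shallowest ribosomal libraries, 11 of 15 without male control 20 and male knockout 2, 7 without female control 18 or 19, and 2 without female control 15 or male knockout 14. With limma-voom and sample weights it was 13.

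**Figure D4:**
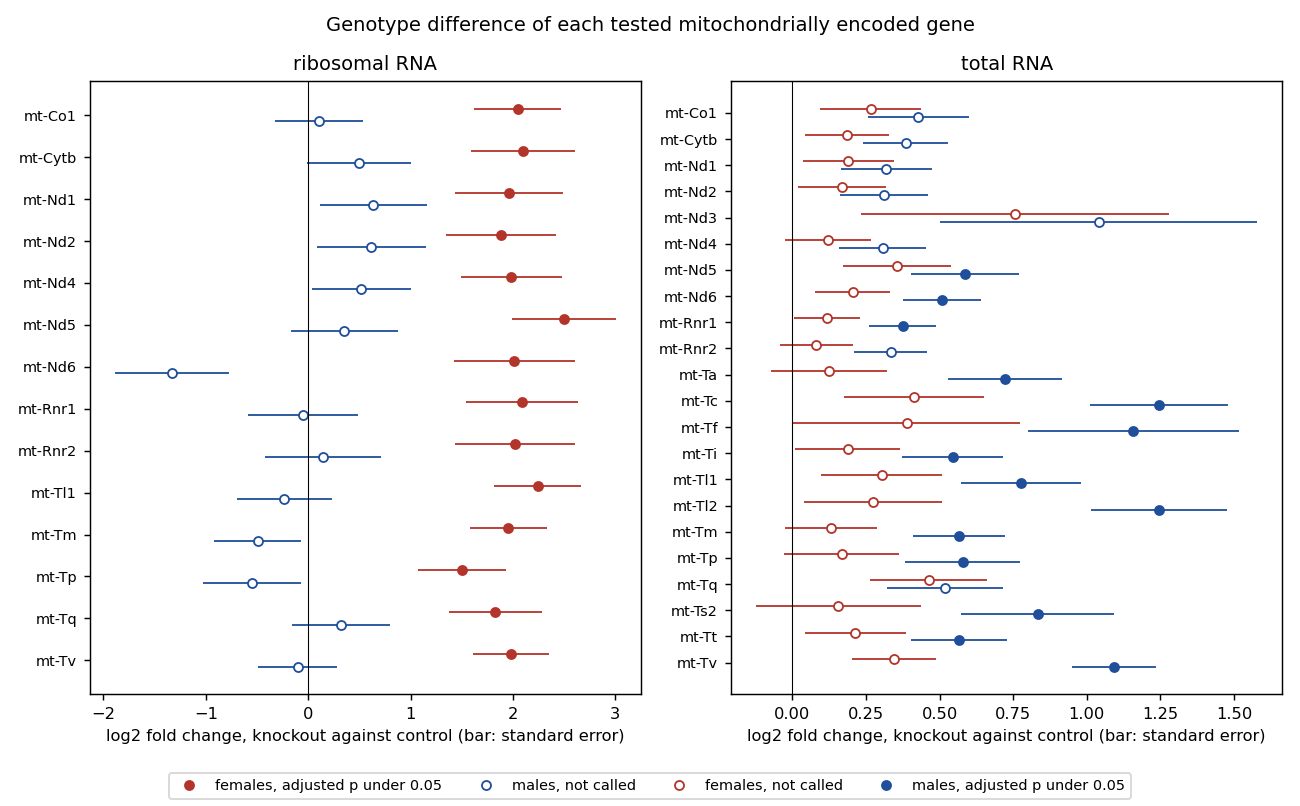
Log2 difference between labelled knockouts and controls (x axis, bars are standard errors) for each tested member in ribosomal RNA (14 genes) and total RNA (22 genes), females in red and males in blue. Filled points have an adjusted p under 0.05: 14 in females in ribosomal RNA, of which mt-Tl1 and mt-Tq passed the filter only through the female labelled knockouts, and 14 of 22 in males in total RNA.

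In total RNA of females, 0 of 22 tested members were called, where 8.49% of all genes were (3.79% higher, 4.7% lower). All 22 differences were positive, with a median of 0.20 beside 0.01 over all genes, and 2 had an unadjusted p under 0.05 (edgeR). DESeq2 and limma-voom also called 0. mt-Cytb had 7356, 8380.5 and 8999 CPM in female controls and 5478, 9964 and 13366 CPM in female labelled knockouts (log2 difference 0.18, SE 0.14, adjusted p 0.465, edgeR). The labelled knockouts were spread more widely than the controls, with female knockout 9 lowest and female knockout 12 highest. mt-Co1 behaved alike, at 2389.6, 2540.5 and 2666 CPM in controls and 1461, 2959.7 and 4698 CPM in labelled knockouts (log2 difference 0.27). mt-Nd5 had 2822, 3077 and 3293 CPM in controls and 1648, 4194 and 6164 CPM in labelled knockouts (log2 difference 0.35). When female knockout 9 was left out, 1 of 22 members was called. No member had all labelled knockouts above all controls, as 1.01% of all genes did. Without female knockouts 5, 6 and 12, a choice made after their values were seen, the median of the 22 differences was -0.08 and 9 were positive. The difference of mt-Cytb was then -0.09 and that of mt-Co1 -0.15. Female knockouts 9 and 2 had the lowest mitochondrial shares of their group, 5.54 and 6.30% of nuclear counts, and 21.6 and 17.6% of reads outside genes. The other female labelled knockouts had 9.54 to 13.5% outside genes. Across the 28 total libraries the log2 mt-mRNA share went with log2 reads outside genes at Pearson r = -0.600, taken over deviations from the group means. The part of this measure was not tested.

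In total RNA of males, 14 of 22 members rose in labelled knockouts and none fell, where 14.2% of all genes were called (6.83% higher, 7.36% lower). The median difference was 0.57, beside 0.00 over all genes. The called members were 11 of 12 tRNAs, 2 of 8 mRNAs and 1 of 2 mt-rRNAs. Over tested members, called or not, the medians were 0.75 for the 12 tRNAs, 0.41 for the 8 mRNAs and 0.35 for the 2 mt-rRNAs. The classes were not tested against each other.

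The tRNAs with the largest differences were mt-Tl2, mt-Tc, mt-Tf and mt-Tv. mt-Tv had 103, 144 and 190.3 CPM in male controls and 210.1, 319 and 379 CPM in male labelled knockouts, with no overlap (log2 difference 1.09, SE 0.14, adjusted p 1.55e-05, edgeR). mt-Tl2, a second leucine tRNA, had 9.20, 10.6 and 15.0008 CPM in controls and 18.7, 22.8 and 36.0 CPM in labelled knockouts, with no overlap (log2 difference 1.25). mt-Tc, for cysteine, rose by 1.25 from a median of 6.53 to 16.6 CPM, with 6 of 7 labelled knockouts above every control. mt-Tf, for phenylalanine, rose by 1.16 at medians of 2.10 and 4.08 CPM, which are few counts. mt-Ts2 (0.83), mt-Tl1 (0.78), mt-Ta (0.72), mt-Tp (0.58), mt-Tm (0.57), mt-Tt (0.57) and mt-Ti (0.54) rose too. mt-Tq, at 0.52 with an adjusted p of 0.0736 (edgeR), did not pass.

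Among the mRNAs in total RNA of males, mt-Nd5 and mt-Nd6 rose. mt-Nd5 had 2315, 3130.0 and 3248 CPM in male controls and 3568, 3921 and 6486 CPM in male labelled knockouts, with no overlap (log2 difference 0.59, SE 0.18, adjusted p 0.0313, edgeR). mt-Nd6 had 18.9, 22.98 and 32.6 CPM in controls and 23.04, 32.1 and 44.3 CPM in labelled knockouts, a log2 difference of 0.51 with 3 of 7 above every control. mt-Tv, mt-Tl2 and mt-Nd5 were the 3 of 22 members with every labelled knockout above every control, as were 1.06% of all genes. mt-Cytb had 7084, 7566 and 8037 CPM in controls and 6206, 9972 and 12665 CPM in labelled knockouts (log2 difference 0.38, adjusted p 0.0668, edgeR). Male knockout 2 lay below every control for it and the other 6 labelled knockouts above every control. The 6 labelled knockouts other than 2 were also above every control for mt-Co1 (0.43), mt-Nd1 (0.32), mt-Nd2 (0.31) and mt-Nd4 (0.31), none of which passed the test. mt-Nd3 stood at medians of 4.19 and 8.53 CPM and did not pass either. Of the mt-rRNAs, mt-Rnr1 rose by 0.38, from a median of 7740.4 to 10359 CPM, and mt-Rnr2 had 0.33 with an adjusted p of 0.0648 (edgeR).

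Other measures of the total libraries moved with the male groups. Reads outside genes ran from 12.4 to 23.4% in male controls and from 9.78 to 13.9% in male labelled knockouts. Within groups they went with the mt-mRNA share at the r of -0.600 given above. Without the 5 total libraries over 19%, among them male controls 25, 26 and 27, the count of members called was 7 of 22 (mt-Rnr1, mt-Rnr2, mt-Tv, mt-Tc, mt-Tl2, mt-Nd6 and mt-Tp) with a median of 0.55, and without male knockout 14 it was 9. Red blood cell markers rose in 5 of 5, with sums of 728 to 1063 CPM in male controls and 1499 to 2597 CPM in male labelled knockouts. Matrix markers rose in 11 of 12, with sums of 2954 to 4878 and 4591 to 6516 CPM. Nuclear retained long non-coding RNAs fell in 4 of 8 tested, with sums of 3201 to 6695 and 2435 to 3933 CPM. Kidney markers rose in 4 of 7 tested of 15, with sums of 28.1 to 181 and 53.0 to 1646 CPM, and the highest library, male knockout 6, had summed mt-mRNA at 4.69% of nuclear counts, close to the group's median of 4.63%. No marker of these 4 lists was at 0 in total libraries. Their part in the mitochondrial difference was not tested.

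The difference between the sexes in total RNA was negative for 22 of 22 members, with a median of -0.33, and 0 were called, as were 0.0% of all genes. An unadjusted p under 0.05 was reached by 4 members (edgeR), and DESeq2 and limma-voom called 0 members. The value farthest from 0 was that of mt-Tl2 at -0.97 (SE 0.33, adjusted p 0.325), and the lowest adjusted p was 0.188 (edgeR). The effect in males was therefore not shown to differ from that in females.

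Between male and female controls, 1 of 22 members differed in total RNA, where 8.7% of all genes did (4.75% higher in males, 3.95% lower). mt-Nd6 had 28.9, 36.3 and 40.6 CPM in female controls and 18.9, 22.98 and 32.6 CPM in male controls, a log2 difference of -0.58 (males against females, SE 0.13, adjusted p 0.00468, edgeR). The highest male control lay above the lowest female control, so the groups overlapped. The neighbouring genes on the other strand, mt-Nd5 (-0.02) and mt-Cytb (-0.11), did not pass. In ribosomal RNA 0 of 14 members were called between controls, where 7.63% of all genes were (4.25% higher, 3.37% lower), and 0 had an unadjusted p under 0.05 (edgeR). DESeq2 also called 0. With limma-voom the count was 2 of 14, and without male control 20 and male knockout 2 it was 2 of 15.

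Most mitochondrial transcripts were lower in ribosomal than in total RNA, by an amount that differed between transcripts. In female controls 22 of 22 tested members were lower in ribosomal RNA with a median log2 difference of -3.52, where 68.1% of all 12546 genes were called (38.1% lower, 30.1% higher). In male controls 22 of 22 were lower (median -4.09, with 70.7% of all genes called, 38.6% lower and 32.1% higher), and in male labelled knockouts 22 of 22 (median -4.69, with 68.3% called, 37.1% lower and 31.1% higher). In female labelled knockouts 18 of 22 were lower (median -2.20, with 64.8% called, 38.2% lower and 26.6% higher), and mt-Nd4, mt-Rnr1, mt-Rnr2 and mt-Ti were not called. The median over all genes in these comparisons was -0.06 to -0.25. mt-Tf, mt-Ti, mt-Ta, mt-Tc, mt-Nd3, mt-Ts2, mt-Tl2 and mt-Tt passed the filter on low counts in total but not in ribosomal libraries. A lower ribosomal level was thus partly built into their passing, and they are included in these counts and medians. The normalized ribosomal level of the summed mt-mRNA was 5.29, 9.13 and 24.4% of the total level of the same mouse in female controls, 18.9, 43.1 and 66.5% in female labelled knockouts, 5.77, 8.38 and 32.0% in male controls and 2.98, 5.19 and 81.0% in male labelled knockouts. The values of 32.0 and 81.0% belonged to male control 20 and male knockout 2. The summed mt-rRNA was 6.12, 15.1 and 62.7% of the total level in female controls, 50.3, 72.7 and 144% in female labelled knockouts, 8.17, 11.8 and 69.7% in male controls and 4.27, 6.73 and 119% in male labelled knockouts. Its normalized level was thus above that of the total library in female knockouts 5, 9 and 12 and in male knockout 2. In percent of nuclear counts, without this scaling, the mt-rRNA was lower in the ribosomal than in the total library of these mice. The values were 2.61 against 3.37%, 2.11 against 2.86%, 3.41 against 4.37% and 1.60 against 2.40%, in this order.

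The make-up of the mt-mRNA counts differed between the RNA types, for 4 of the mRNAs in the same direction in every mouse. mt-Nd4 took 26.9 to 35.0% of the mt-mRNA counts in ribosomal libraries and 15.3 to 19.6% in total libraries, higher in ribosomal RNA in 28 of 28 mice. mt-Cytb took 13.2 to 18.1% against 20.9 to 23.2%, mt-Nd5 2.98 to 4.76% against 6.61 to 13.4% and mt-Co1 2.53 to 4.79% against 5.96 to 8.40%, each lower in ribosomal RNA in 28 of 28 mice. For these 4 mRNAs the ranges of the RNA types did not overlap. mt-Nd1 had a higher share in ribosomal RNA in 26 of 28 mice, at medians of 27.8 and 24.7%, and mt-Nd2 in 9 of 28, at 18.1 and 18.4%. The share of mt-Nd4 in ribosomal libraries ran from 29.3 to 31.8% in female controls and from 27.6 to 35.0% in female labelled knockouts, so those groups overlapped. The mt-rRNA counts per mt-mRNA count were higher in the ribosomal library in 26 of 28 mice, with group medians of 1.07 to 1.96 in ribosomal and 0.770 to 0.813 in total libraries. Shares of 1 sum are not independent, and a count share does not compare molar amounts between genes.

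**Figure D5:**
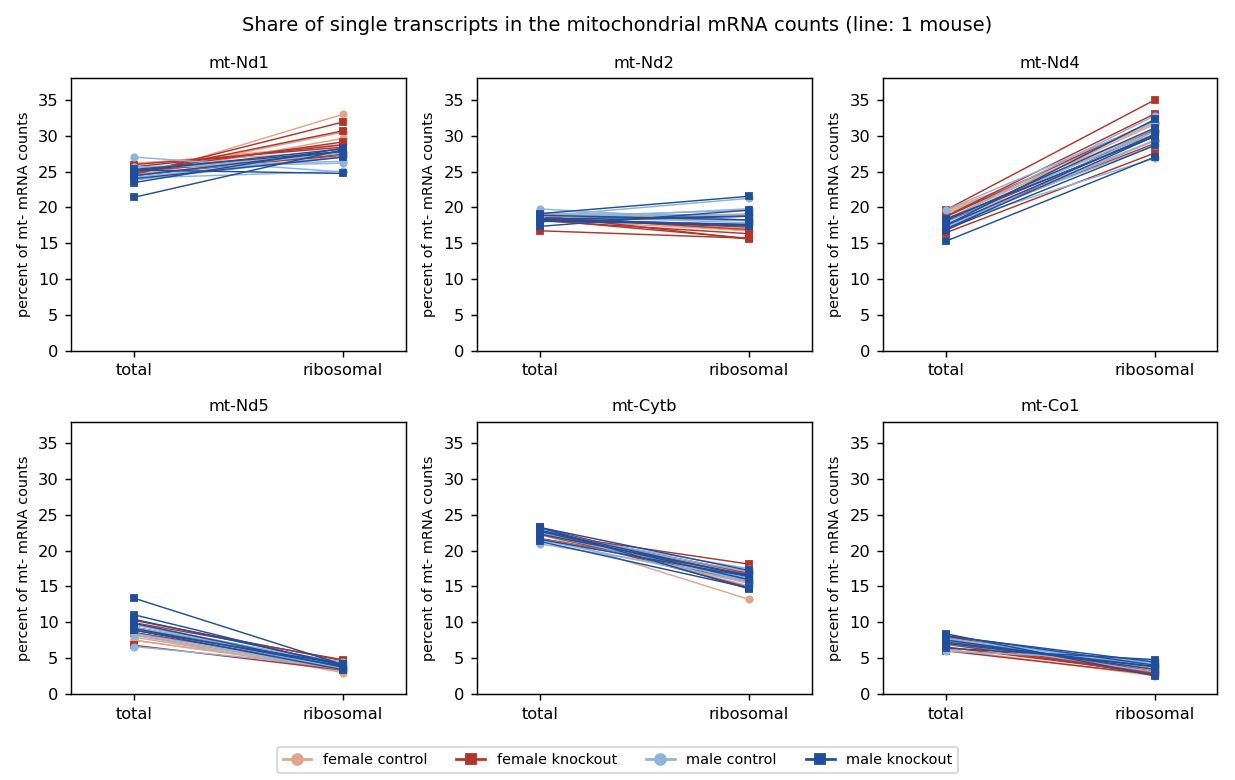
Percent of the mitochondrial mRNA counts taken by 6 mRNAs (y axis) in the total and ribosomal library of each mouse, with 1 line per mouse and 7 mice per group. All 28 lines rise for mt-Nd4 and fall for mt-Cytb, mt-Nd5 and mt-Co1.

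The genotype effect in ribosomal RNA exceeded that in total RNA in females for 9 of 22 members, where 3.46% of all genes were called (1.85% higher, 1.61% lower). They were mt-Nd5 (2.07, SE 0.53), mt-Nd4 (1.80), mt-Nd6 (1.76), mt-Cytb (1.85), mt-Co1 (1.71), mt-Rnr1 (1.93), mt-Tl1 (1.87), mt-Tm (1.75) and mt-Tv (1.58), with adjusted p from 0.00729 to 0.0421 (edgeR). mt-Rnr2 (1.89), mt-Nd1 (1.71) and mt-Nd2 (1.66) did not pass. The count fell to 1 without female control 15 or female knockout 5, to 4 without female control 17 or 21 or female knockout 2 or 12, and to 5 without female control 14. It was 13 of 22 without male control 20 and male knockout 2. In males 0 of 22 were called, where 0.128% of all genes were (0.0319% higher, 0.0956% lower), with a median of -0.22, and 4 had an unadjusted p under 0.05 (edgeR). DESeq2 and limma-voom also called 0. A fit with no filter on low counts called mt-Nd6 (-1.85), mt-Tm (-1.05) and mt-Tp (-1.11).

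Nuclear genes that transcribe or replicate mitochondrial DNA moved little. Of 11 genes of mitochondrial transcription, 8 were tested and 0 were called in any of the 4 knockout comparisons, with list medians from -0.11 to 0.13. Polrmt, the mitochondrial RNA polymerase, had log2 differences of 0.45 and 0.08 in ribosomal RNA of females and males and 0.08 and -0.24 in total RNA. Tfam, which packs mitochondrial DNA and starts its transcription, had -0.11, -0.02, 0.10 and 0.11 in the same order. Of 16 genes of mitochondrial DNA replication and nucleotide supply, 13 were tested in ribosomal and 15 in total RNA. Rrm2b, a subunit of ribonucleotide reductase, fell in ribosomal RNA of females (-0.61) and in total RNA of males (-0.42). Polg, the DNA polymerase, fell in total RNA of females (-0.34), and Top1mt, a topoisomerase, in total RNA of males (-0.46). These were the calls made in that list, 1 of 13 in ribosomal RNA of females, 1 of 15 and 2 of 15 in total RNA of females and males and 0 in ribosomal RNA of males, where 8.41, 4.7, 7.36 and 4.87% of all genes fell.

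The genes of mitochondrial RNA processing that were called in ribosomal RNA all fell. Of 31 in the list, 28 were tested in ribosomal RNA: 2 fell in females and 4 in males and 0 rose, where 8.41 and 4.87% of all genes fell, with medians of -0.26 and 0.05 beside -0.02 and -0.01 over all genes. Rexo2, an oligoribonuclease, fell by 0.31 and Ptcd2 by 0.53 on the log2 scale in females. Mrm1, an rRNA methyltransferase, fell by 0.56 and Tbrg4 by 0.38 in males. In total RNA 30 were tested, and 0 were called in females and 2 in each direction in males, where 6.83% of all genes rose and 7.36% fell. Grsf1, an RNA-binding protein of mitochondrial RNA granules, rose by 0.27 there and Nsun4, an rRNA methyltransferase, fell by 0.41. Lrpprc, which stabilizes mitochondrial mRNAs, was not called in any of the 4 comparisons (log2 differences 0.09, 0.12, 0.03 and 0.14). Of 19 mitochondrial aminoacyl-tRNA synthetases, 16 were tested in ribosomal and 17 in total RNA, and 0 were called in any knockout comparison.

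In the list drawn up for mitochondrial translation factors, Mss51 stood out in both sexes. Mss51, a muscle-enriched protein of mitochondria, had 58.7, 105 and 109 CPM in ribosomal libraries of female controls and 279, 424 and 568.4 CPM in those of female labelled knockouts, with no overlap (log2 difference 2.11). In male ribosomal libraries it had 208, 255 and 377 CPM in controls and 409, 639 and 823 CPM in labelled knockouts, again with no overlap (1.303). In total RNA of females it rose by 1.75. Of the 23 genes in the list, 2 rose in ribosomal RNA of each sex, Mss51 among them. The other was Mrrf, a ribosome recycling factor, by 0.45 in females and Mtrf1l, a release factor, by 0.57 in males. Of all genes, 8.44% rose in females and 4.09% in males, and list medians were -0.17 and -0.05. In total RNA of males Malsu1, an assembly factor of the mitochondrial ribosome, rose by 0.51 and Gatb, a subunit of an amidotransferase that makes glutaminyl-tRNA, fell by 0.55. Of all genes there, 6.83% rose and 7.36% fell.

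The nuclear partners of the mitochondrial subunits did not rise with them in ribosomal RNA of females. The list of nuclear-encoded subunits of complexes I, III, IV and V holds 40 symbols, older names of some subunits included. Of these 32 were tested, 0 rose and 6 fell, where 8.44% of all genes rose and 8.41% fell, with a median of -0.18. Atp5c1, the gamma subunit of the ATP synthase, fell by 0.57 in females. In total RNA 0 of 32 were called in females and 3 rose in males, where 6.83% of all genes did, among them Cox7a1 (0.36) of complex IV and Uqcrfs1 (0.29), the Rieske subunit of complex III. Stress genes were called in small numbers. Of 18 genes of the mitochondrial unfolded protein response and the integrated stress response, 14 were tested in ribosomal and 15 in total RNA. In ribosomal RNA of females 2 rose and 1 fell, where 8.44% of all genes rose and 8.41% fell. There Mthfd2, an enzyme of mitochondrial folate metabolism, rose by 0.69 and the secreted factor Gdf15 by 1.58. Gdf15 was sparse, with medians of 2.37 CPM in controls and 7.33 CPM in labelled knockouts. Its highest library was a control at 29.4 CPM, above the highest labelled knockout at 18.9 CPM. In males 1 rose in each RNA type (4.09% of all genes rose in ribosomal and 6.83% in total RNA), Clpx (0.41), a subunit of a mitochondrial protease, in ribosomal RNA and the transcription factor Atf5 (0.32) in total RNA. In total RNA of females Mthfd2 (0.38) and Ddit3 (0.49), a transcription factor of the stress response, rose, as did 3.79% of all genes.

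Within groups, the genes that varied most like the summed mt-mRNA differed between the RNA types. Likeness was the Pearson correlation of deviations from the group means over 28 libraries, among nuclear genes with a mean of at least 20 CPM (5091 in ribosomal and 6659 in total RNA), and the points share each library's depth. In ribosomal RNA the highest were Malat1 (0.846), a nuclear long non-coding RNA, Gsn (0.830), Aldoa (0.807), Col3a1 (0.804) and H2-D1 (0.803), and the lowest was Sorl1 (-0.892). The central 90% of these genes lay between -0.622 and 0.537. The mt-mRNAs at this level, which are parts of the sum, had 0.970 to 0.987, mt-Rnr1 and mt-Rnr2 0.876 and 0.870, mt-Tm 0.795 and mt-Tp 0.407. In total RNA the highest were Ppp1cb (0.888), Ifngr2 (0.873) and Suclg1 (0.848), a subunit of an enzyme of the citric acid cycle, and the lowest was Stk38 (-0.893). There the heavy-strand mRNAs had 0.916 to 0.979, mt-Rnr1 and mt-Rnr2 0.700 and 0.594, mt-Tv 0.260 and mt-Nd6 0.210. mt-Nd6, the only mt-mRNA read from the light strand, took a median of 0.0845% of the mt-mRNA counts in total libraries. The heavy-strand mRNAs given here took medians of 7.37% (mt-Co1) to 24.7% (mt-Nd1). Their high values are thus partly built into the sum, and a part of the strand was not tested.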

How the data were processed

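RNA of 28 mice gave 56 libraries, each from 500 ng by Lexogen Quant-Seq, a 3′ end protocol, with 50 bp reads, per the labels' protocols. The deposited values are raw counts per gene; GRCm39, HTSeq, STAR, UMI-tools, R 4.3.0 and DESeq2 1.40.1 are named by the authors, per the submitters' processing notes. Strand setting and annotation release are not given in the sources used here. The 5 HTSeq summary lines were left out of tests, and 0 columns were unused. Symbols came from a GRCm38 gene table, which matched 52029 identifiers.

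Tests used edgeR 4.0.16 under R 4.3.3 on these counts (filterByExpr, TMM, quasi-likelihood F-test, Benjamini-Hochberg adjustment over all genes). Ribosomal libraries (9098 genes), total libraries (12860) and all 56 (12546) were fitted apart with 1 mean per group, and depth (160313 to 5848058 counts) limits the sparse members. CPM uses TMM-scaled library sizes. Alternatives were RLE size factors, nuclear library sizes, no filter, DESeq2 1.42.0, limma-voom 3.58.1, the compared libraries alone, the mouse as a block and left-out libraries. Scripts were tested on simulated data.

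Named were all tested mt- genes, the 2 members of lowest p called in each pathway list and comparison, Polrmt, Tfam and Lrpprc, and the nuclear genes most like the mt-mRNA sum. One result that this rule names is not reported here. Members and lists were chosen with earlier results of these data known, so no list is independent support. Ribosomal and total libraries that share sex, genotype and number in the labels were taken as 1 mouse. Their deviations from the group means over 12546 genes correlated at -0.213 to 0.217 (median 0.00132), above 0.1 in 9 of 28 pairs, so the pairing rests on the labels.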

Additional observations from a re-analysis of the deposited data

Results flagged for a closer look

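Within groups of 7, 21 of 80 sets of values checked held a library far from the others, where chance flags about 1 in 20 groups. The sets share libraries and genes and are not independent. Most came from male knockout 2 and male control 20. The ribosomal library of male knockout 2 stood high in mt-mRNA (1.49% of nuclear counts), mt-rRNA (1.60%) and tRNA (0.0135%). It also stood high in mt-Cytb (2809 CPM), mt-Nd5 (693 CPM), mt-Rnr2 (13950.0 CPM), mt-Tm (43.8 CPM) and mt-Tv (14.6 CPM). It held 160313 counts, the fewest of all libraries. The total library of the same mouse stood low in mt-rRNA (2.40%) and mt-Rnr2 (14050.0 CPM).

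The ribosomal library of male control 20 stood high in its group in mt-mRNA (0.587%) and mt-rRNA (0.926%). Its levels of mt-Cytb (1355 CPM), mt-Nd5 (290.4 CPM), mt-Nd6 (27.3 CPM), mt-Rnr2 (9078 CPM), mt-Tm (74.1 CPM) and mt-Tv (15.6 CPM) were also far above the next library. Its depth of 704646 counts was the lowest of the male controls. In total RNA, female control 21 stood high in mt-rRNA (3.75%) and mt-Rnr2 (26350.0 CPM), and male control 26 stood low in mt-Nd5 (2315 CPM).

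Effects that differed between groups by an interaction test (edgeR, adjusted p under 0.05) were of 2 kinds. The genotype effect in ribosomal RNA was higher in females than in males for mt-Nd6 (3.35), mt-Tl1 (2.47), mt-Tm (2.45) and mt-Tv (2.08) on the log2 scale. Of all genes, 3.43% passed that test (1.54% higher, 1.89% lower). mt-Tl1 passed the filter on low counts only through the female labelled knockouts. mt-Nd6 and mt-Tv reached the filter's level in exactly 7 libraries outside that group. In females the genotype effect was higher in ribosomal than in total RNA for mt-Nd5 (2.07), mt-Rnr1 (1.93), mt-Tl1 (1.87), mt-Cytb (1.85), mt-Nd4 (1.80), mt-Nd6 (1.76), mt-Tm (1.755), mt-Co1 (1.71) and mt-Tv (1.58). There 3.46% of all genes were called (1.85% higher, 1.61% lower).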

How the results depend on the processing

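Of the calls on single members, 1094 of those under another setting kept direction and side of the threshold, 19 lost the call, 1 gained it and 6 reversed. With 1 library or mouse left out the numbers were 1204, 96, 0 and 2. The cause of each change below was not tested. Without a filter on low counts, 3 members were called in ribosomal RNA of males, 13 in the sex difference there, 2 between controls in ribosomal RNA, and 15 (females) and 3 (males) for the difference between RNA types. limma-voom called 13 in the sex difference and 2 between controls. Without the 7 shallowest ribosomal libraries the sex difference held 12, and without male control 20 and male knockout 2 it held 11, with 2 between controls. Without total libraries over 19% of reads outside genes, 7 were called in males. With all counts as denominator the mean summed mt-mRNA was 3.59% in total libraries of female controls and 3.46% in those of male controls. In ribosomal RNA of males, mt-Rnr2 reversed to -0.375 with limma-voom, -0.433 without shallow libraries and -0.430 without male control 20 and male knockout 2, and mt-Cytb reversed to -0.10 with limma-voom. In total RNA of females without knockouts 5, 6 and 12, mt-Co1 was -0.15 and mt-Cytb -0.089. Leaving out 1 library gave -1.15 to 0.86 for mt-Rnr2 and -0.44 to 1.03 for mt-Cytb in ribosomal RNA of males. Members called then ran from 2 to 12 in the sex difference, 0 to 1 in total RNA of females, 9 to 20 in total RNA of males, and 1 to 12 for the difference between RNA types in females. With the mouse as a replicate block, 11 members were called for the latter (9 without it), 18 for ribosomal against total RNA in female labelled knockouts and 0 for the difference in males. Over all genes the block lowered the calls for the difference in females from 434 to 261. Fits of the compared libraries alone called 936 genes in ribosomal RNA of females, where all 28 ribosomal libraries gave 1533. limma-voom called 1749 in males (815 by edgeR), 684 in the sex difference (312) and 1874 between controls (694).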
